A study of Arabidopsis thaliana with 6 samples.

Results

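The ATG8 genes of Arabidopsis thaliana were followed across 6 arrays of a study of acclimation to light intensity. The members were taken by gene symbol, as the probe sets whose platform symbol begins with ATG8 or APG8. This gave 6 probe sets of the 8297 on the array, 1 for each of APG8A (AT4G21980), ATG8B (AT4G04620), ATG8C (AT1G62040), ATG8D (AT2G05630), ATG8E (AT2G45170) and ATG8F (AT4G16520). The remaining 3 genes of the family of 9, ATG8G, ATG8H and ATG8I, had no probe set named here and were not analysed here. All 6 probe sets passed the filter on dim signals and were among the 5773 tested.

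ATG8 proteins are small ubiquitin-like proteins that are joined to the lipid phosphatidylethanolamine on the growing autophagosome, the double membrane that encloses cytoplasm and carries it to the vacuole for breakdown. The protease ATG4 trims the new protein to a terminal glycine and later frees it from the lipid, and ATG7 and ATG3 carry out the joining. On the membrane, ATG8 also binds the receptors that bring in cargo. In plants the pathway recycles proteins and parts of chloroplasts, and it is known from leaves kept in the dark or short of sugar. Within the Arabidopsis family, ATG8A to ATG8D form one subgroup of related sequences and ATG8E to ATG8G another.

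All plants were of the accession Ws-2 with no genetic modification, at growth stage 3.90, and RNA came from rosette leaves that had not been shaded. Each array has a code of 3 letters: CLL, CLM and CLH share the start CL, CVL, CVM and CVH the start CV, and either start comes with the endings L, M and H, so that there are 2 starts, 3 endings and 1 array per code. The labels do not explain the letters, and light levels are not given to the codes here. For CLL and CVL alone, the record of growth conditions states a dark phase of 16 hours at 15 °C. The number of plants pooled for an array is not given, and nothing says whether arrays came from plants grown separately. With 1 array per code, the p-values rest on how unevenly the starts differed across the endings, joined to the same spread in other probe sets. In that spread, array-to-array noise, which may be technical, cannot be told apart from a true unevenness.

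Values are signal intensities on a linear scale that had been brought to a common mean, and tests used log2(signal + 3.9). Array medians ran from 20.0 in CVM and 21.9 in CVL to 26.1 in CLL. RNA quality, read from the GAPDH control as the ratio of its 3-prime to its 5-prime signal, stood apart on both H arrays, with ratios of 6.22 for CLH and 5.50 for CVH against 2.81 to 3.76 on the others. Of 7 leaf marker genes 1 had a probe set, RCA (Rubisco activase), with signals from 7731 to 10820. None of the flower, seed or root marker genes had a named probe set, so the share of other organs was not measured. In whole leaves, fewer cells with a transcript and less of it per cell cannot be told apart. A probe set's signal depends on its probes, so levels are compared between arrays and never between genes.

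The comparison of CV with CL asks whether the family differed between the 2 starts of the code. All 6 ATG8 genes had a fitted level below that of CL, although ATG8B moved to a change of 0.05 when arrays were quantile normalized or scaled to a common median. The fitted change was negative for 59.5% of all tested probe sets. ATG8E, ATG8F, APG8A and ATG8D were lower on every CV array than on any CL array (4 of 6 genes, against 12.2% of all tested probe sets). ATG8E stood furthest apart, with a mean signal of 349.6 over the 3 CL arrays and 82.9 over the 3 CV arrays. The SDs, 176.9 in CL and 34.4 in CV, are spread across the endings L, M and H, which are not replicates.

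**Figure D1:**
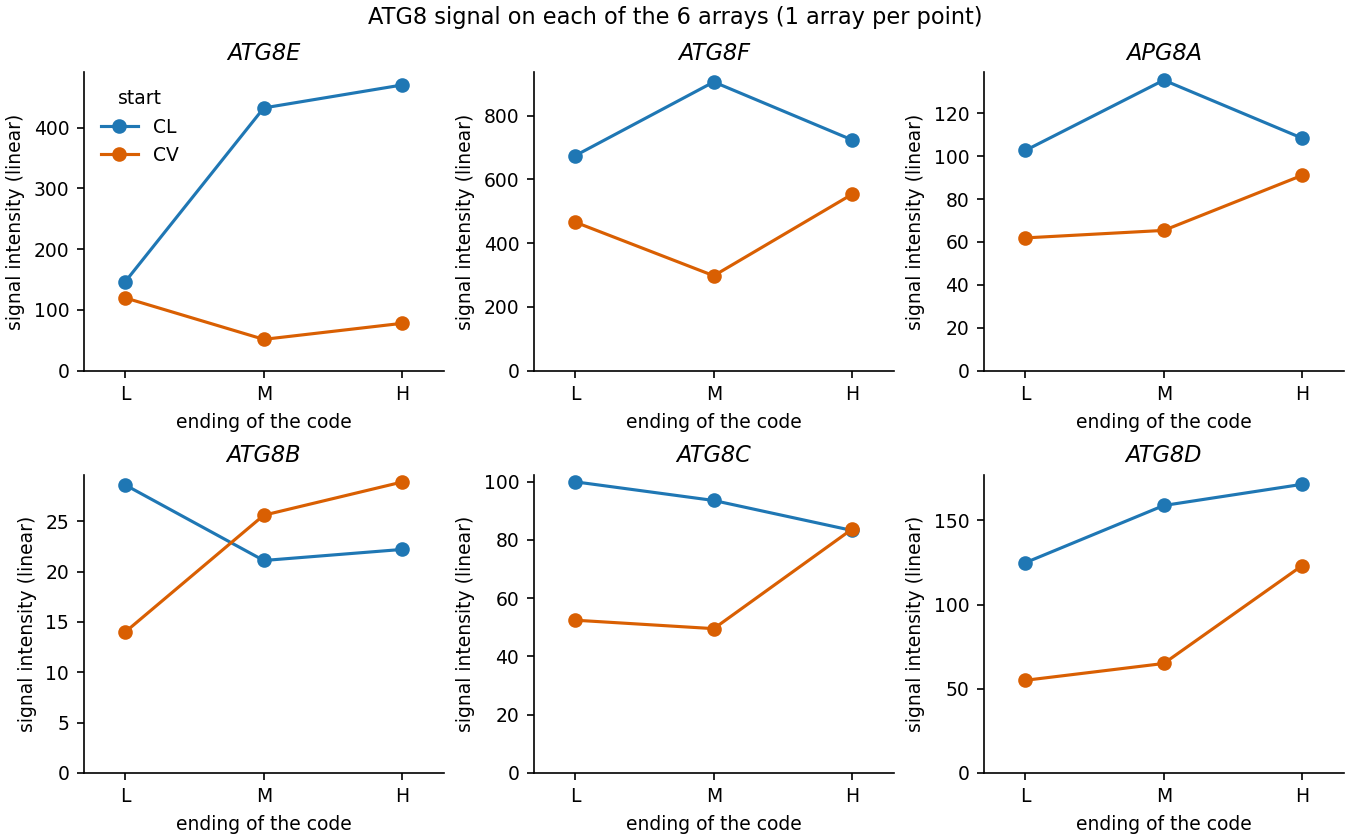
Signal intensity (linear, from 0) of each ATG8 gene on the 6 arrays, by ending of the code on the horizontal axis, with CL in blue and CV in orange; each point is 1 array and there are no error bars. ATG8E, ATG8F, APG8A and ATG8D lie lower in CV at each ending, ATG8C meets at H (83.2 in CLH and 83.7 in CVH), and ATG8B crosses.

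Of the subgroup of ATG8E to ATG8G, ATG8E and ATG8F were measured. ATG8E gave 146.5 at L, 432.3 at M and 470.1 at H across CL, and 119.6, 51.4 and 77.8 across CV (signal intensity). The starts did not overlap, but the L arrays were close, and the distance between CL and CV came from M and H. The CL signal was 1.22 times the CV signal at L, 8.41 times at M and 6.04 times at H. The fitted change was -1.93 on the log2 scale (SE 0.47, 95% interval -3.01 to -0.85, limma adjusted p = 0.178). Only 18 of the 5773 tested probe sets had a lower fitted change. The name of the ATG8E probe set ends in _s_at, the suffix Affymetrix gives to probes that can match more than 1 transcript, so a share of another gene in this signal cannot be told apart.

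ATG8F gave 675.0 at L, 906.2 at M and 724.0 at H across CL, and 465.9, 297.8 and 553.8 across CV. The starts did not overlap, and the widest distance was at M, where the CL signal was 3.04 times that of CV, against 1.45 times at L and 1.31 times at H. Its fitted change was -0.84 (SE 0.29, 95% interval -1.49 to -0.18, limma adjusted p = 0.291). For both genes of this subgroup CLM was far above CVM and CVM was the lowest array. Neither trait was particular to them, since CVM was also the lowest array for ATG8C of the other subgroup. There, CLM was 2.44 times CVM for ATG8D, 2.07 times for APG8A and 1.89 times for ATG8C, but 0.82 times for ATG8B.

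In the subgroup of ATG8A to ATG8D all genes were measured. ATG8D gave 124.9 at L, 158.9 at M and 171.5 at H across CL, and 55.0, 65.0 and 123.2 across CV. CVL and CVM were far below the CL arrays, while CVH came up to just below CLL, so the starts only narrowly did not overlap. The CL signal was 2.27 times that of CV at L, 2.44 times at M and 1.39 times at H. The fitted change was -0.94 (SE 0.26, 95% interval -1.54 to -0.34, limma adjusted p = 0.204).

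APG8A, which is ATG8A under an older symbol, gave 102.7 at L, 135.5 at M and 108.4 at H across CL, and 61.9, 65.4 and 91.1 across CV. The starts did not overlap, with CVH nearest to CL. The fitted change was -0.65 (SE 0.26, 95% interval -1.24 to -0.06, limma adjusted p = 0.346).

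ATG8C gave 99.9 at L, 93.5 at M and 83.2 at H across CL, and 52.4, 49.5 and 83.7 across CV. CVL and CVM were far below the CL arrays, while CVH and CLH were level. Its fitted change was -0.58 (SE 0.27, 95% interval -1.20 to 0.04, limma adjusted p = 0.413).

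ATG8B gave 28.6 at L, 21.1 at M and 22.2 at H across CL, and 14.0, 25.6 and 28.9 across CV. It was lower in CV at L and higher in CV at M and H, and the range of the CL arrays lay inside that of the CV arrays. The fitted change was -0.10 (SE 0.33, 95% interval -0.86 to 0.66, limma adjusted p = 0.932), an interval that holds changes as large as those of the other genes of its subgroup apart from the fitted value of ATG8D.

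**Figure D2:**
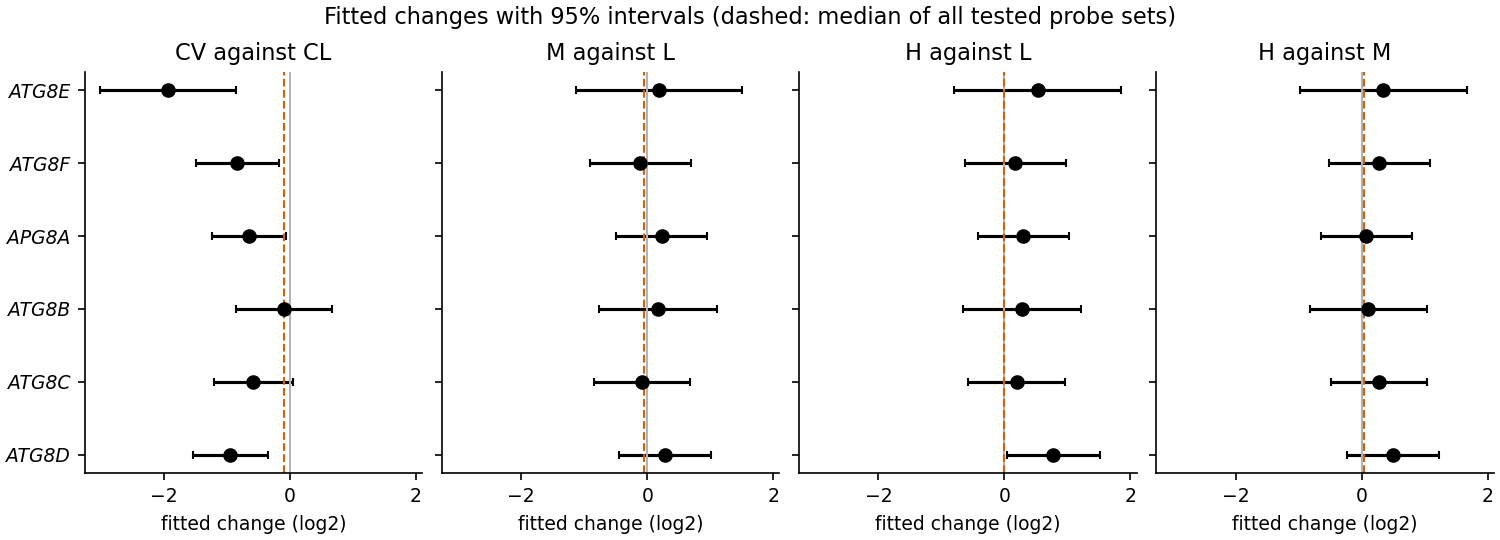
Fitted log2 change of each ATG8 gene in the 4 contrasts, with 95% intervals from limma as bars and the median of all 5773 tested probe sets as a dashed line. For CV against CL the intervals of ATG8E, ATG8F, APG8A and ATG8D lie below 0; among the contrasts of endings only that of ATG8D for H against L lies off 0.

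No ATG8 gene passed the test over all probe sets (limma, Benjamini-Hochberg adjusted p under 0.05; 0.0346% of probe sets passed). At an unadjusted p under 0.05, 4 of the 6 were lower in CV, those whose starts did not overlap, against 7.4% of all tested probe sets. The median fitted change of the 6 genes was -0.74, beside -0.10 over all tested probe sets, and it was -0.46 without CLM or CVM. The 6 genes had been singled out with these values known, so the counts describe them and support nothing further.

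The difference between the starts was not the same at each ending. CV was below CL for 6 of 6 genes at L (61% of all tested probe sets), for 5 of 6 at M (61.7%) and for 4 of 6 at H (45.7%). For L, M and H in turn, the median difference over the 6 genes was -0.78, -1.12 and -0.31, beside -0.15, -0.18 and 0.05 over all tested probe sets. At L the 4 genes APG8A, ATG8B, ATG8C and ATG8D differed more (log2 -0.70 to -1.13) than ATG8E and ATG8F (-0.28 and -0.53). At M this order turned, with -2.98 for ATG8E and -1.59 for ATG8F, against -1.24 to 0.24 for the others. Each of these is a difference between 2 single arrays and has no test.

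Every one of the 6 genes had its lowest signal in CVL or CVM (44.3% of all tested probe sets did). These were also the arrays with the lowest medians. With all arrays scaled to a common median, the fitted changes in CV against CL were -1.77 for ATG8E, -0.78 for ATG8D, -0.67 for ATG8F, -0.49 for APG8A, -0.42 for ATG8C and 0.05 for ATG8B. The median over all tested probe sets moved from -0.10 to 0.05 under that scaling. No batch is given in the labels, so the start and any handling shared by its 3 arrays cannot be told apart.

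One ending decided much of the ATG8E value. With CLL or CVL left out, which takes the L comparison away, its change was -2.76. With CLM or CVM left out the ATG8E change was -1.41, and with CLH or CVH left out it was -1.63. Each of these fits had 1 residual degree of freedom, so only the size is given. Without CLL and CVL it was joined to 72.0 and 81.3 prior degrees of freedom taken from the other probe sets, against 6.3 with all arrays. Without CLM or CVM the change of ATG8F was -0.46 in place of -0.84. Without CLL or CVL that of ATG8B was 0.28.

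**Figure D3:**
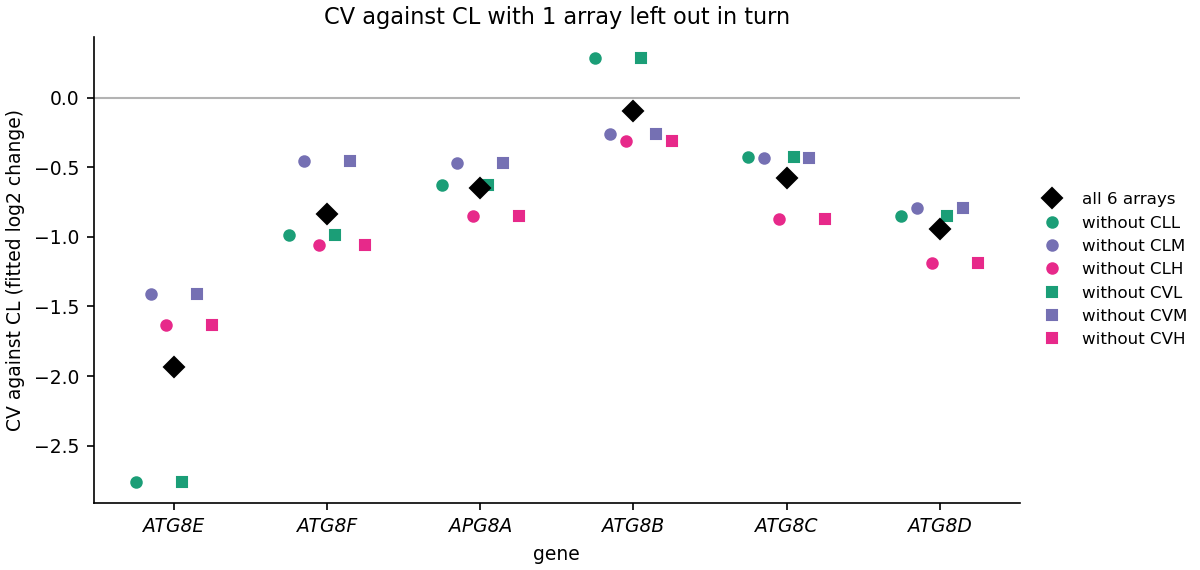
Fitted log2 change of CV against CL for each ATG8 gene with all 6 arrays (diamonds) and with 1 array left out in turn (circles for a CL array, squares for a CV array). ATG8E runs from -2.76 to -1.41, ATG8B lies on both sides of 0, and the other genes stay below 0; leaving out either array of an ending gives the same value, because the array that remains then says nothing about the starts.

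The contrasts of endings ask whether the family differed between L, M and H in both starts alike. In the fit over both starts, all 6 genes were higher at H than at L (49.2% of all tested probe sets were) and higher at H than at M (54.2%), and 4 of 6 were higher at M than at L (42.8%). These contrasts share arrays and are not independent. These directions rested on single arrays: without CVH, 4 of 6 genes were below 0 for H against L and 4 of 6 for H against M, where 3 of 6 were without CVM. For M against L, 4 of 6 were below 0 without CLM. With arrays scaled to a common median APG8A and ATG8B were lower at H than at M, at -0.058 and -0.014. The GAPDH ratio was highest on both H arrays, and its part in these values was not tested.

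By limma 0 ATG8 genes passed for M against L, H against L or H against M, and 0% of all probe sets did. At an unadjusted p under 0.05 there was 1 for H against L, ATG8D, which was higher (3.05% of tested probe sets were), and 0 for M against L and for H against M (1.28% and 4.43% of tested probe sets in either direction). ATG8D was 0.78 higher at H than at L on the log2 scale (SE 0.32, 95% interval 0.04 to 1.51, limma adjusted p = 0.794), a value that was 0.42 without CVH and 1.14 without CLH. It was higher at H in each start, with 171.5 against 124.9 in CL and 123.2 against 55.0 in CV, and its L and H arrays overlapped across the starts. For H against L the other 5 genes had fitted changes from 0.17 (ATG8F, SE 0.35) to 0.53 (ATG8E, SE 0.58). Over all 6 genes, the fitted changes for H against M ran from 0.07 (APG8A, SE 0.31) to 0.50 (ATG8D, SE 0.32). Those for M against L lay between -0.11 (ATG8F, SE 0.35) and 0.28 (ATG8D, SE 0.32).

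Some of those fitted values average starts that ran in different directions. From L to M in CL, the 4 genes ATG8E, ATG8F, APG8A and ATG8D were higher (46.1% of all tested probe sets were). In CV the 3 genes APG8A, ATG8B and ATG8D were higher (45.2%). ATG8E went to 2.95 times its L signal in CL and to 0.43 times in CV, and ATG8F to 1.34 times and 0.64 times. ATG8B ran the other way, to 0.74 times its L signal in CL and 1.83 times in CV. APG8A and ATG8D were higher at M in both starts by small amounts (log2 0.07 to 0.39), and ATG8C was slightly lower in both (-0.09 and -0.08).

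From L to H, 4 of 6 genes were higher in CL (42.8% of all tested probe sets) and 5 of 6 in CV (57.2%). In CV these were all but ATG8E, with ATG8D at 2.24 times, ATG8B at 2.06 times and ATG8C at 1.60 times the L signal, while ATG8E was at 0.65 times. In CL, ATG8E was at 3.21 times and ATG8D at 1.37 times the L signal, and the other 4 genes were between 0.78 and 1.07 times. From M to H, 3 of 6 genes were higher in CL (45.2%) and 6 of 6 in CV (61.6%), where the ratios ran from 1.13 for ATG8B to 1.90 for ATG8D. The difference between the starts in these steps was not tested, since each step compares 2 single arrays.

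The order of the 6 arrays put the CL arrays above the CV arrays for ATG8E, ATG8F, APG8A and ATG8D. Within that, ATG8E and ATG8D ran CLH, CLM, CLL from the top, and ATG8F and APG8A ran CLM, CLH, CLL. With 1 array a code, the only spread to set these orders against is the moderated SD of the fit, from 0.31 for APG8A to 0.58 for ATG8E on the log2 scale. Of the 5 gaps between neighbours in the order, 2 exceeded this SD for ATG8E and for ATG8D and 1 for each other gene. The SD rests in part on the same signals, through the uneven difference between the starts across endings. These counts are therefore a description and no test. For ATG8E the widest gap lay inside CL, between CLM and CLL (1.54), not between the starts. For ATG8D it lay between CVH and CVM (0.88), and for ATG8C between CLH and CVL (0.63).

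Across the 6 arrays ATG8B had the lowest correlations with the other members. The Pearson correlation of log2 signal was 0.95 between APG8A and ATG8D, 0.91 between APG8A and each of ATG8F and ATG8C, and 0.86 between ATG8E and ATG8F. The correlations of ATG8B with the others were between -0.25 (ATG8E) and 0.48 (ATG8C). These are descriptions over 6 arrays, which all pairs share together with the scaling of each array. The median over the 15 pairs was 0.78, beside 0.045 over all pairs of tested probe sets, and it was 0.55, beside 0.036, after the mean of each start had been subtracted. By that measure APG8A, ATG8C and ATG8D still had values from 0.74 to 0.85 with each other, whereas ATG8E had 0.23 with APG8A, -0.17 with ATG8C, 0.20 with ATG8D and 0.56 with ATG8F. ATG8B had higher values than ATG8E with these genes, at 0.37 with APG8A, 0.57 with ATG8C and 0.52 with ATG8D, but -0.21 with ATG8F and -0.71 with ATG8E, so which gene stood apart depended on whether the start was kept. Over the 6 arrays as they are, 0.710% of all tested probe sets were more like APG8A than ATG8D was. For ATG8E the share more like it was 4.0% for ATG8F, 8.78% for APG8A, 11.5% for ATG8D, 20.4% for ATG8C and 69.1% for ATG8B.

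**Figure D4:**
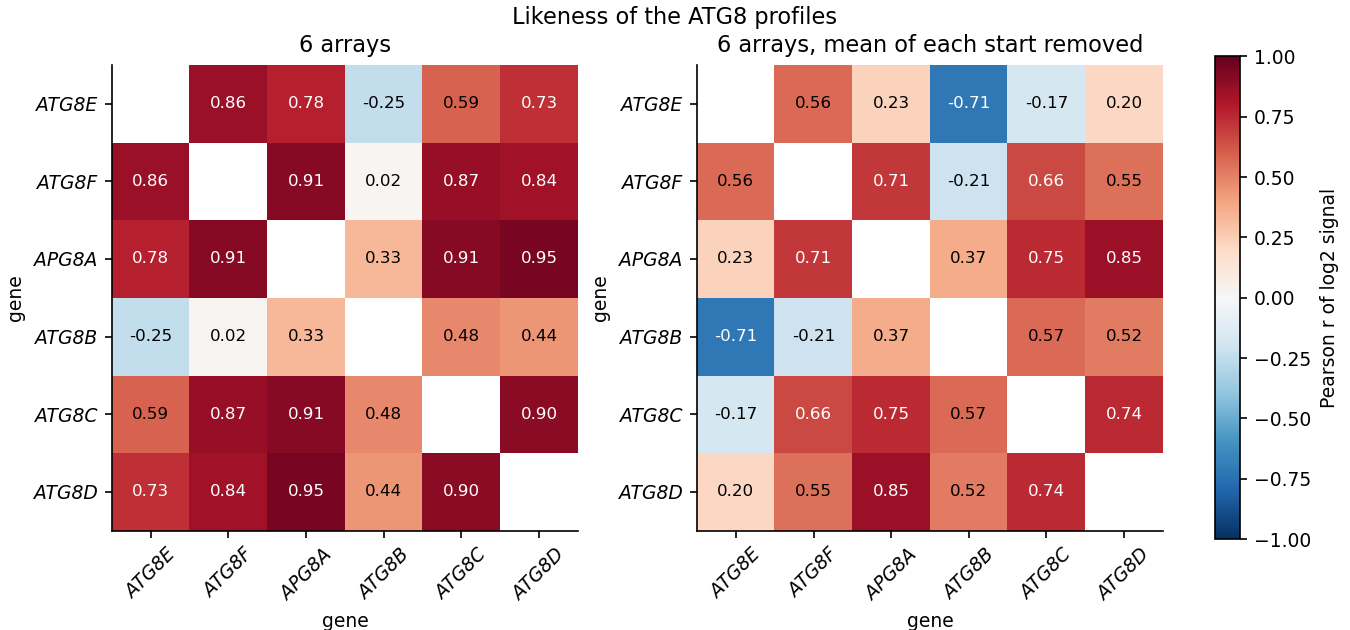
Pearson correlation of log2 signal between the ATG8 genes over the 6 arrays (left) and after the mean of each start was subtracted (right), on a colour scale from -1 to 1. APG8A, ATG8C and ATG8D keep values from 0.74 to 0.85 on the right, and ATG8B with ATG8E is the lowest pair at -0.71.

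Among 2414 genes outside the family, those most like the mean ATG8 profile over the 6 arrays were AT4G19860 (r = 0.99), AT4G35220, AT5G27280, AT3G52070, AT1G76700 and NdhS, a subunit of the chloroplast NADH dehydrogenase-like complex (each r = 0.99). That mean leans on ATG8E, whose log2 SD over the arrays was 1.26, against 0.33 (ATG8B) to 0.65 (ATG8D) for the others. AT4G19860 gave 53.4 at L, 80.9 at M and 79.2 at H across CL, and 30.0, 27.2 and 47.1 across CV. The CV signals of AT1G76700 at L and M were 4.3 and 3.4, at the level of the offset of 3.9. The genes most opposite were AT2G03980 (r = -0.99), AT4G17390, which encodes a ribosomal protein of the large subunit (-0.99), GH9B6, of the endoglucanase family (-0.98), and AT1G15140 (-0.98). The 4 genes most like ATG8E alone were COR47, a dehydrin (r = 0.98), AT4G27130 (0.98), AT4G19240 (0.98) and ICL, the isocitrate lyase of the glyoxylate cycle (0.98), whose signals of 1.5 in CVM and 3.3 in CVH were below the offset. COR47 gave 1048.6 at L, 3043.8 at M and 3082.5 at H across CL, and 1313.8, 582.8 and 816.4 across CV, so that, as for ATG8E, M and H were above L in CL and below it in CV. All genes of this paragraph were picked by their correlation, so its size, and the order that COR47 shares with ATG8E, follow from that choice.

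Few other autophagy genes had a named probe set. Of 32 genes of the autophagy machinery 2 did: ATG4A, which encodes a protease that trims and frees ATG8, and ATG1C, which encodes a kinase of the initiation complex. ATG4A gave 97.0 at L, 92.7 at M and 86.1 at H across CL, and 70.7, 62.0 and 92.1 across CV. The starts overlapped through CVH, and as for all 6 ATG8 genes the lowest array was CVL or CVM. Its fitted change in CV against CL was -0.30 (SE 0.25, limma adjusted p = 0.666), from -0.49 without CLH or CVH to -0.17 without CLM or CVM. ATG1C was too dim to be tested, with signals from 1.0 to 6.6.

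Of 10 genes for receptors and trafficking proteins linked to autophagy, 2 were tested. DSK2A, a ubiquitin receptor, had a fitted change of -0.24 (SE 0.25, limma adjusted p = 0.730) with signals from 113.4 to 157.2 in CL and from 110.5 to 124.7 in CV. SH3P2, a membrane-remodelling protein that binds ATG8, had -0.41 (SE 0.36, limma adjusted p = 0.674) with 17.4 to 43.6 in CL and 15.1 to 27.9 in CV. Both overlapped between the starts. The DSK2A change was -0.42 without CLM or CVM and -0.14 without CLL or CVL, and that of SH3P2 was -0.90 without CLH or CVH and -0.13 without CLM or CVM. Of the 4 genes for TOR and SnRK1, the kinases that set autophagy by nutrient state, 0 had a named probe set.

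Autophagic cargo ends in the vacuole, and of 7 genes for vacuolar proteases and processing enzymes 3 were tested. GAMMA-VPE, a vacuolar processing enzyme that matures other vacuolar proteins, gave 2575.6 at L, 3124.1 at M and 2393.6 at H across CL, and 493.8, 357.3 and 1509.9 across CV; its probe set and that of ALPHA-VPE also carry the _s_at suffix. Its starts did not overlap, and CVH was the CV array nearest to CL, as for ATG8F, APG8A, ATG8C and ATG8D. The fitted change was -2.05 (SE 0.41, limma adjusted p = 0.127). It was -2.74 without CLH or CVH, -1.89 without CLL or CVL and -1.52 without CLM or CVM. With an array left out the fit had 1 residual degree of freedom, so only the size is given. ALPHA-VPE and BETA-VPE had fitted changes of -0.19 (SE 0.31) and -0.11 (SE 0.34), and overlapped between the starts; BETA-VPE moved to 0.025 after quantile normalization, 0.045 with a common median and 0.36 without CLL or CVL. Counted together, 3 of 3 of these enzymes were below 0 with all arrays as deposited (59.5% of all tested probe sets were), with a median of -0.19 beside -0.10 over all tested probe sets, and 0 passed the test.

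**Figure D5:**
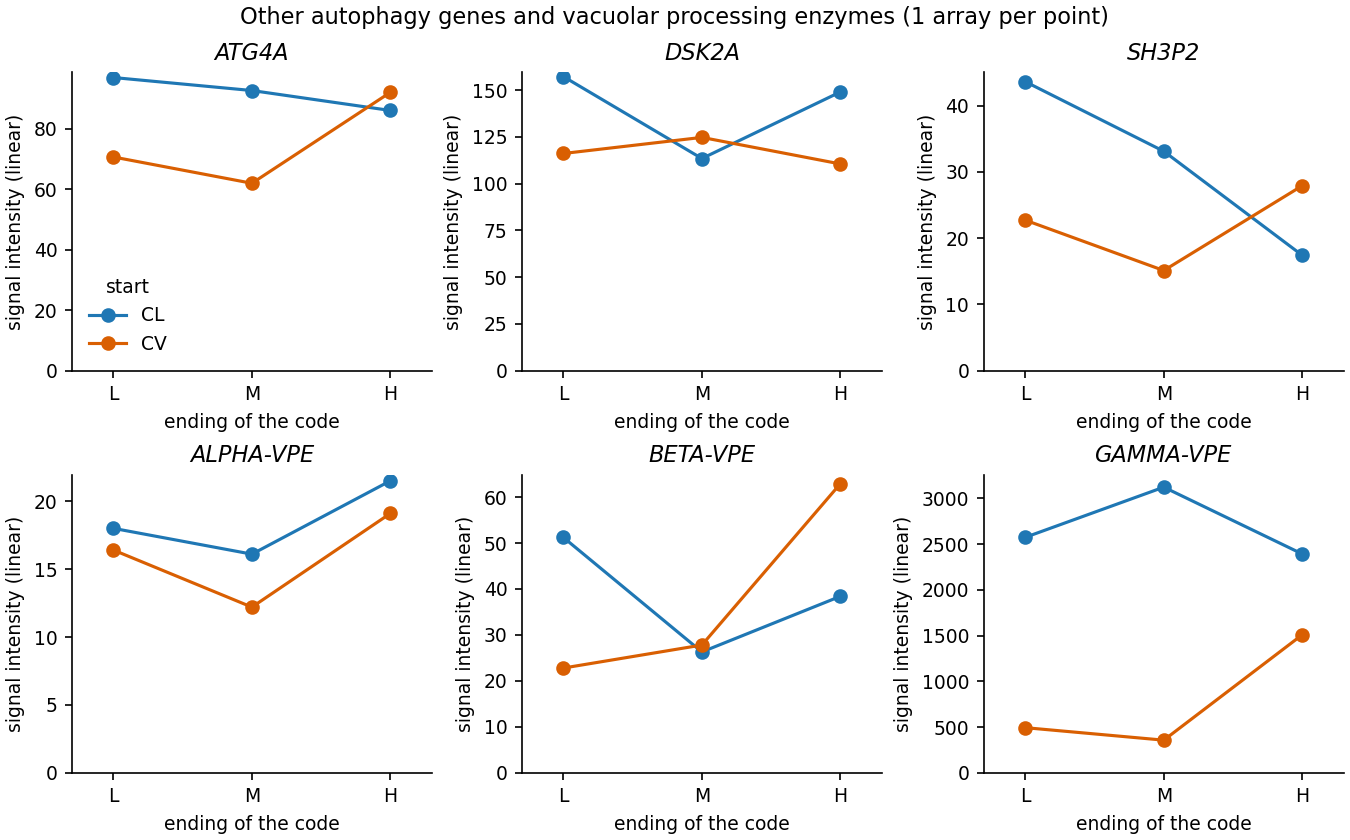
Signal intensity (linear, from 0) of ATG4A, DSK2A, SH3P2 and the 3 vacuolar processing enzyme genes on the 6 arrays, by ending of the code, with CL in blue and CV in orange and 1 array per point. GAMMA-VPE is lower on each CV array (357.3 to 1509.9) than on any CL array (2393.6 to 3124.1), and the other 5 genes overlap between the starts.

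Of 10 genes known to be induced in the dark or by lack of sugar, 1 was on the array under a name, AT3G15450. It gave 17.2 at L, 430.5 at M and 200.2 at H across CL, and 113.4, 5.4 and 8.5 across CV. As with ATG8E, M and H lay above L in CL and below L in CV. The share of all tested probe sets with this order is not given here. Its fitted change in CV against CL was -2.37 (SE 1.23, limma adjusted p = 0.449). The signals of 5.4 in CVM and 8.5 in CVH were near the offset of 3.9, so this size depends on the offset. It was -2.61 with an offset of 1 and -1.67 with the median of all values as the offset. With the offset of 3.9 the change was -4.79 without CLL or CVL and -0.78 without CLM or CVM. Each of these fits had 1 residual degree of freedom, so only the size is given.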

How the data were processed

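The deposited table holds signal intensity values on a linear scale, 1 column for each of 6 single-channel Affymetrix arrays hybridised with biotin-labelled cRNA, per the labels. Every array had a mean of 100.2 once 2% of the values were trimmed at either end, so the authors had scaled the intensity values to a common level, with software that the sources used here do not give. Precision is limited by the number of arrays.

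The 50 control probe sets and the dimmest 30% of the rest (2474, mean signal at most 8.85) were left out, and log2(value + 3.9), with the 20th percentile of all values as the offset, was fitted with limma 3.58.1 in R 4.3.3 (start and ending of the code, intensity trend, 2 residual degrees of freedom, Benjamini-Hochberg over 5773 probe sets). Adding the offset understates the change of dim genes. The fit was tested on simulated data in which a change between the starts was the same at each ending. That test does not cover changes that differ between endings.

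Gene names came from the platform's annotation, with symbols updated through the TAIR10.1 table; of 8297, 3794 had 1 gene, 70 several, and the other 4433 no listed gene. Members and lists were chosen with earlier results of these data known. All ATG8 genes and all measured genes of the autophagy machinery, receptor and kinase lists are named, up to 4 of the vacuolar and starvation lists, and the genes with the highest and lowest correlation with the mean of the members' centred profiles. Alternatives changed the offset, filter, normalization, trend, ending term and arrays used.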

Additional observations from a re-analysis of the deposited data

Results flagged for a closer look

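Several ATG8 genes differed in opposite directions between endings in CL and in CV. Each value compares single arrays, the difference between the starts was not tested, and steps that share an array are not independent. The difference is given as the log2 change in CV minus that in CL.

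For ATG8E from L to M it was -2.70, with 1.54 in CL and -1.16 in CV. From L to H it was -2.25, with 1.66 in CL and -0.60 in CV. ATG8F was higher at M than at L in CL and lower in CV, a difference of -1.06, and lower at H than at M in CL and higher in CV, a difference of 1.21.

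For ATG8B both M and H were below L in CL and above it in CV, with differences of 1.10 for M and 1.19 for H. ATG8C was lower in CL and higher in CV from L to H (a difference of 0.89) and from M to H (0.88). APG8A was lower in CL and higher in CV from M to H, a difference of 0.77.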

How the results depend on the processing

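The fit of CV against CL matched the arrays by ending; each code had 1 array, so there were no replicate numbers to pair by. Each ATG8 gene has 1 probe set, so the choice of probe set gave no alternative, and ATG8B was not tested when the dimmest 50% were left out. With all arrays in the fit, ATG8E, ATG8F, APG8A, ATG8C and ATG8D stayed below 0 in CV against CL under 9 settings, with adjusted p from 0.0985 to 0.336 for ATG8E. ATG8B was 0.053 after quantile normalization and 0.047 with a common median, BETA-VPE 0.025 and 0.0445. With a common median the change of ATG8C for M against L was 0.015, those of APG8A and ATG8B for H against M were -0.058 and -0.014, and the genes below 0 numbered 1 for M against L and 2 for H against M. The 2 calls over all probe sets for CV against CL were 0 with a common median, without the trend and without the ending term.

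At M alone the median of CV against CL was -1.12 and ATG8B 0.24; at H alone they were -0.31 and 0.33, with ATG8C at 0.0083. Within CL alone, M against L was 0.42 for ATG8F and -0.38 for ATG8B, H against L was -0.32 for ATG8B and -0.25 for ATG8C (2 genes below 0), and H against M was -0.32 for ATG8F, -0.31 for APG8A and -0.16 for ATG8C (3 genes below 0). Within CV alone ATG8E was at -1.16 for M against L and -0.60 for H against L (1 gene below 0), and the median for H against M was 0.64. The cause of these differences was not tested.

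With 1 array left out in turn, CV against CL gave 0 to 1 members and 1 to 257 probe sets called, a median over the members of -0.97 to -0.46, a range of -2.76 to -1.41 for ATG8E, -0.31 to 0.28 for ATG8B, -0.49 to 0.36 for BETA-VPE, -2.74 to -1.52 for GAMMA-VPE and -4.79 to -0.78 for AT3G15450. For M against L, 0 to 38 probe sets were called, 1 to 4 members lay below 0 and the median ran from -0.17 to 0.48, with ranges of -1.05 to 1.43 for ATG8E, -0.68 to 0.46 for ATG8F, -0.039 to 0.50 for APG8A, -0.40 to 0.74 for ATG8B -0.31 to 0.14 for ATG8C and 0.060 to 0.50 for ATG8D. For H against L, 0 to 64 probe sets and 0 to 1 members were called (ATG8E without CVL, 1.77, adjusted p = 0.0248), 0 to 4 members lay below 0 and the median ran from -0.022 to 0.60, with ranges of -0.71 to 1.77 for ATG8E, -0.16 to 0.51 for ATG8F, -0.0029 to 0.61 for APG8A, -0.29 to 0.85 for ATG8B -0.25 to 0.63 for ATG8C and 0.42 to 1.14 for ATG8D. For H against M, 0 to 10 probe sets were called, 0 to 4 members lay below 0 and the median ran from -0.11 to 0.60, with ranges of -0.44 to 1.13 for ATG8E, -0.29 to 0.85 for ATG8F, -0.23 to 0.38 for APG8A, -0.21 to 0.43 for ATG8B -0.17 to 0.72 for ATG8C and 0.14 to 0.86 for ATG8D. The median correlation of the 15 pairs stayed between 0.66 and 0.86.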
